A study of Homo sapiens with 4 samples.

Results

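The mRNA of 6 secreted stress hormones, GDF15, FGF21, ADM2, INHBE, STC2 and STC1, was followed in HCT116 cells given HJ-23. They are 6 of the 20263 genes listed in each count table, and 4 of them, GDF15, ADM2, STC2 and INHBE, were among the 14062 genes with enough counts to be tested. HCT116 is an established human colorectal carcinoma line, labelled wild type here. Cells received 30 µM HJ-23, a code-named compound that the submitters call a piperine derivative, or 0.1% DMSO, a solvent, for 24 hours. RNA-seq gave 2 libraries per group. The percentage of DMSO given to the HJ-23 cells was not stated in the labels used here. The treatment field of the treated samples reads HJ-25 where their titles read HJ-23, and the titles were followed. The count columns are headed with the letters D and C, which do not spell out DMSO and HJ-23; groups follow the sample record each file belongs to, and an exchange there would turn every direction. The labels do not tell whether replicate libraries are separate cultures, and the spread between them, on which every p-value here rests, may be technical.

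These hormones leave the cell and report stress to other tissues. The integrated stress response slows general protein synthesis and raises ATF4, a transcription factor that acts with partners such as CHOP (encoded by DDIT3) on amino acid, redox and hormone genes. GDF15 is a distant relative of TGF-beta that lowers appetite through GFRAL, a receptor of the hindbrain. FGF21 is an endocrine fibroblast growth factor made mainly in liver, ADM2 (intermedin) is a vasoactive peptide of the calcitonin family, and INHBE encodes the subunit of activin E, a liver hormone that acts on fat. STC2 and STC1, the stanniocalcins, are glycoproteins that inhibit the pappalysin proteases and so restrain the release of insulin-like growth factors, with STC1 also known as a hypoxia-responsive gene.

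The members were chosen by name with their levels and fold changes for HJ-23 against DMSO in these same libraries known. Those values are therefore descriptions, and where a count of genes past a threshold includes a member, nothing is read from it. Levels are CPM, counts scaled to a common library size with the trimmed mean of M-values, and a pair of values is always given in the order replicate 1, replicate 2. A gene was called near 0 where no library exceeded 1 CPM. In bulk RNA, more cells making a transcript and more transcript per cell cannot be told apart.

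The promoters of 4 hormone genes are shown: GDF15, ADM2 and STC2, which were expressed, and FGF21, which was near 0. Those of INHBE and STC1 are not shown. Each line gives the 250 bases before the annotated transcription start, 5′ to 3′ on the gene's strand, from RefSeq's GRCh38.p14 promoter table. Capitals mark the match to the CARE motif, the composite site of C/EBP and ATF4.
GDF15, chr19:18385908-18386157, plus strand: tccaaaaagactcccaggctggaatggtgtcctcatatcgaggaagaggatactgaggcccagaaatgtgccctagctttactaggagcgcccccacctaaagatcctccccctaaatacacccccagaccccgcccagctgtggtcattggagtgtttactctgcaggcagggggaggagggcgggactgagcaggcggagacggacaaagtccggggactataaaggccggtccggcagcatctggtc
FGF21, chr19:48755274-48755523, plus strand: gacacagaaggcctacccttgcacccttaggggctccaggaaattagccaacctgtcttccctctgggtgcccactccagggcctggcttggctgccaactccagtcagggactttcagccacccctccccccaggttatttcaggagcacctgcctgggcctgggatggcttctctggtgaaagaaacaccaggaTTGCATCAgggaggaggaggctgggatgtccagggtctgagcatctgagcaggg
ADM2, chr22:50481293-50481542, plus strand: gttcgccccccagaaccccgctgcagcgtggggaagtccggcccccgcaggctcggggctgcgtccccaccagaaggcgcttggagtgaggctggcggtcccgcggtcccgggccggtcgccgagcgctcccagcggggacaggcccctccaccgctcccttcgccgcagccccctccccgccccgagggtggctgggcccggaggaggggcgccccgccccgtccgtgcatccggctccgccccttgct
STC2, chr5:173328415-173328664, minus strand: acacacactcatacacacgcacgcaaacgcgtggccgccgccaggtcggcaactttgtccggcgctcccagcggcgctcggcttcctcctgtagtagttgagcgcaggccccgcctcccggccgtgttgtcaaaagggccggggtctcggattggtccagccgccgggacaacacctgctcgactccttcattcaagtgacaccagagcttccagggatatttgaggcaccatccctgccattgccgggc

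CARE was searched as TGATGNAA on both strands. It matched 1 of the 4 windows, that of FGF21, as TTGCATCA from 54 to 47 bases before the start, and 3.14% of the 35116 promoters in the table. Other motifs that matched none of the 4 windows included the cyclic AMP response element TGACGTCA (1.65% of all promoters), the antioxidant response element TGACNNNGC (10.91%), the endoplasmic reticulum stress response element (0.07%) and the hypoxia response core ACGTG (18.51%). A match is a run of letters and not a measured site, and the absence of a match says only that these letters are not in the window. The GC content of the windows was 58.4% for GDF15, 60.0% for FGF21, 78.8% for ADM2 and 63.6% for STC2, against a median of 58.0% over all promoters.

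GDF15 (ENSG00000130513) was the member with the highest levels and the largest difference. It was at 161.4 and 149.1 CPM in the DMSO libraries and at 616 and 826.2 CPM in the HJ-23 libraries. Both treated libraries lay far above both controls, and even the lower treated library was 3.82 times the higher control. The group means were 155.3 ± 8.74 and 721.1 ± 149 CPM (SD, n = 2), a log2 fold change of 2.22 (SE 0.19), or 4.64-fold. The counts behind these levels were 5016 and 4362 in DMSO and 21839 and 28435 in HJ-23, so counting error is small beside the spread between libraries. Only 0.235% of the tested genes had a larger log2 fold change.

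ADM2 (ENSG00000128165), the intermedin gene, was at 35.4 and 31.4 CPM in the solvent controls and at 45.4 and 55.9 CPM after treatment. The treated libraries were again both above the controls, but the lower of them exceeded the higher control only 1.28 times. The log2 fold change was 0.60 (SE 0.18, n = 2 per group), and 5.85% of tested genes had a larger one.

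STC2 (ENSG00000113739), the stanniocalcin known as a target of the unfolded protein response, was at 143 and 122.9 CPM in DMSO and at 159.6 and 209.6 CPM in HJ-23. The groups did not overlap, although HJ-23 replicate 1 was only 1.12 times DMSO replicate 1. The log2 fold change was 0.47 (SE 0.18). It was 0.24 with HJ-23 replicate 2 left out and 0.64 with replicate 1 of that group left out, so the larger part of the difference lay in HJ-23 replicate 2.

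INHBE (ENSG00000139269), the activin E subunit gene, was at about 1 CPM or less and lay lower, not higher, in HJ-23. It was at 0.933 and 1.06 CPM in the controls, from 29 and 31 counts, and at 0.846 and 0.465 CPM in the treated libraries, from 30 and 16 counts. HJ-23 replicate 2 was the low library, and the other 3 lay close together. The log2 fold change was -0.60 (SE 0.43), with -0.26 when HJ-23 replicate 2 was left out and -1.11 when HJ-23 replicate 1 was.

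FGF21 (ENSG00000105550) and STC1 (ENSG00000159167) were near 0 and were not tested. FGF21 had 0 and 2 counts in either group, all under a floor of 6 counts per library (0.169 to 0.205 CPM), so no fold is given and any difference was not detectable at this depth. STC1 had 8 and 22 counts in DMSO and 9 and 4 in HJ-23, or 0.257 and 0.752 CPM against 0.254 and 0.116 CPM. DMSO replicate 2 was the high library for STC1, and the replicate 1 libraries of both groups were alike.

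**Figure D1:**
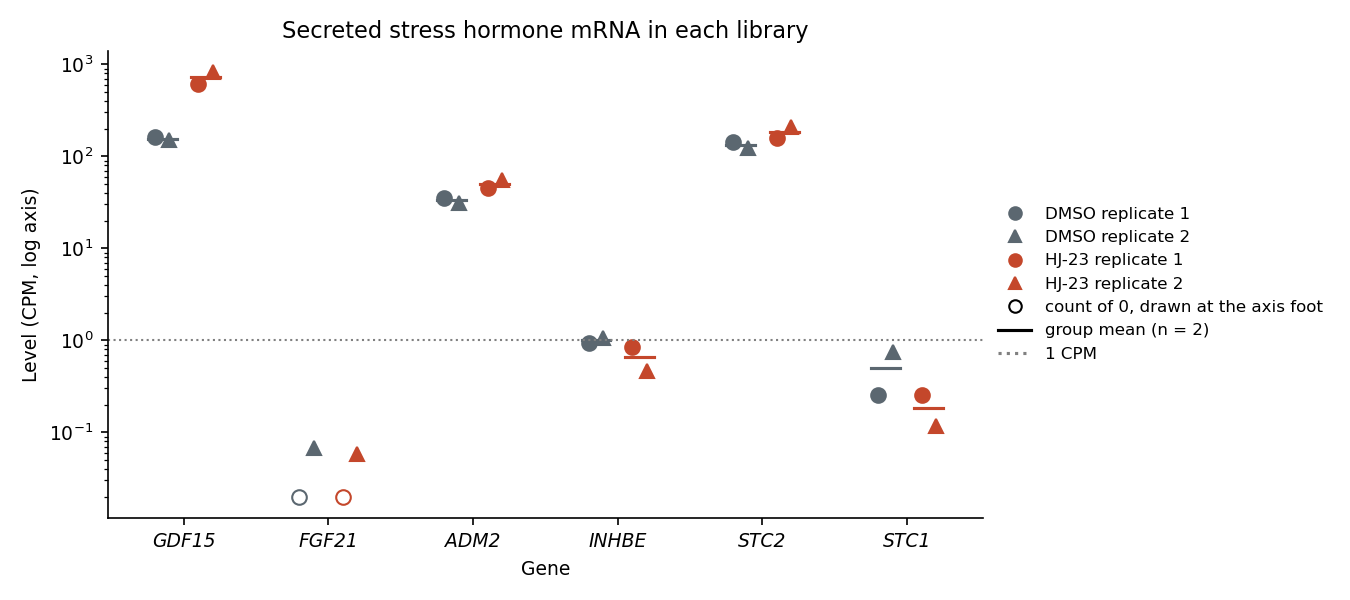
Level of each hormone gene in each library, in CPM on a log axis, with circles for replicate 1, triangles for replicate 2, bars for group means (n = 2, left out for FGF21) and open symbols at the axis foot for a count of 0. GDF15 stands 3.82 times or more above the controls in both HJ-23 libraries, ADM2 and STC2 lie slightly above them, INHBE sits near 1 CPM, and FGF21 and STC1 stay below 1 CPM in every library.

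Levels of different genes can be set side by side only per length, here as CPM per kilobase of the longest annotated transcript. In DMSO GDF15 was at 129.4 ± 7.28, STC2 at 24.8 ± 2.65, ADM2 at 7.81 ± 0.66 and INHBE at 0.410 ± 0.037 CPM per kilobase (SD, n = 2). In HJ-23 the order was the same, with GDF15 at 600.9 ± 124, STC2 at 34.5 ± 6.60, ADM2 at 11.8 ± 1.74 and INHBE at 0.270 ± 0.11 CPM per kilobase. Neighbours in this order were further apart than their SDs, except STC1 and FGF21 at its foot, which were at 0.130 ± 0.090 and 0.026 ± 0.037 CPM per kilobase in DMSO and 0.048 ± 0.025 and 0.022 ± 0.031 in HJ-23. The 2 stanniocalcin genes thus lay orders of magnitude apart in the same libraries. GDF15 made up 79.2% and 80.0% of the summed per-length level of the 6 genes in the DMSO libraries and 92.6% and 92.9% in the HJ-23 libraries. With the median transcript length in place of the longest, these shares were 52.4% and 54.0% in DMSO and 78.9% and 79.3% in HJ-23, because several annotated STC2 transcripts are short.

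Of the 4 tested members, 3 (GDF15, ADM2 and STC2) had both HJ-23 libraries above both DMSO libraries, as did 24.8% of all genes tested, and INHBE had both below, as did 21.2%. At an adjusted p below 0.05 (edgeR's quasi-likelihood test, Benjamini-Hochberg over the 14062 genes), 1 of the 4, GDF15, was among the 8 genes called higher, 0.0569% of those tested, and none was among the 4 called lower (0.0284%). The members were chosen with this contrast known. With either HJ-23 library left out, edgeR called 0 genes in the whole table, so GDF15 was not called either (at an unadjusted p below 0.05 there were 3501 genes with HJ-23 replicate 1 left out and 1377 with HJ-23 replicate 2 left out). The call of GDF15 was also lost with a filter at 10 CPM and with a replicate term beside the GC and length correction. Each of these settings likewise called 0 genes in the whole table. The call was kept with DESeq2, with its size factors, with no filter, and with the replicate term or the correction alone. All these calls rest on the values known when the members were chosen, and nothing is read from them.

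The levels of GDF15, STC2 and ADM2 moved together between replicates as well as between groups, while INHBE, at about 1 CPM, went the other way. For INHBE, HJ-23 replicate 2 was at 0.549 times HJ-23 replicate 1, and DMSO replicate 1 at 0.881 times DMSO replicate 2. HJ-23 replicate 2 exceeded HJ-23 replicate 1 for GDF15 (1.34 times), STC2 (1.31 times) and ADM2 (1.23 times), and DMSO replicate 1 exceeded DMSO replicate 2 for the same genes (1.08, 1.16 and 1.13 times). Base composition moved with these differences: over 14047 tested genes, transcript GC content had a Spearman correlation of 0.61 with the log2 difference between HJ-23 replicates 2 and 1, of 0.34 with that between DMSO replicates 1 and 2, and of 0.37 with the fold change. GC content was 62.9% for GDF15, 63.1% for ADM2, 51.7% for STC2 and 53.9% for INHBE, against a median of 49.5%. INHBE thus lay above the median as well, although its level went the other way. With each library's trend on GC content and length removed, the log2 fold changes were 1.96 (SE 0.090) for GDF15, 0.36 (SE 0.10) for ADM2 and 0.44 (SE 0.15) for STC2. For INHBE the value was -0.68 (SE 0.45) with this correction and -0.60 (SE 0.43) without it. The part of base composition in the remaining differences was not tested.

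**Figure D2:**
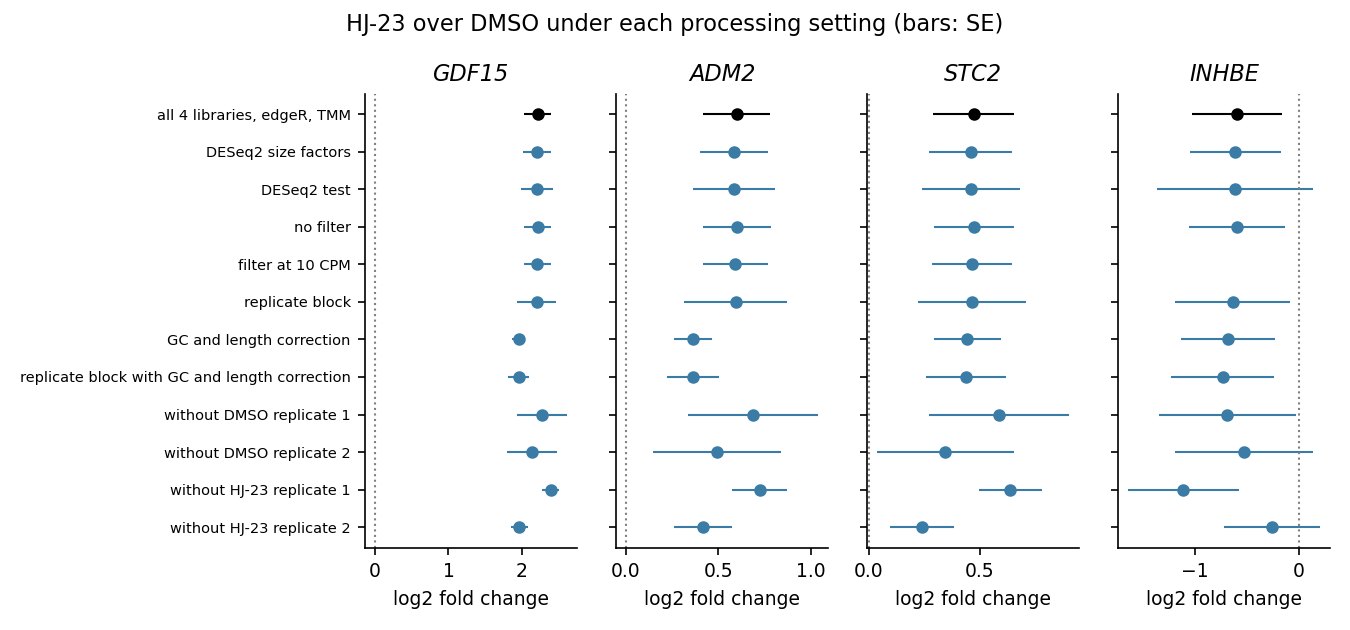
Log2 fold change of the 4 tested members, HJ-23 over DMSO, under each processing setting (rows), with bars for the SE and a dotted line at 0. GDF15 stays between 1.96 and 2.39, ADM2 between 0.36 and 0.72, STC2 between 0.24 and 0.64, and INHBE between -1.11 and -0.26, with no point for INHBE under the 10 CPM filter, which it did not pass.

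Transcriptional regulators known to act on the hormone genes, with the ATF4-binding pseudokinase TRIB3, were listed next. All 19 were tested. At an adjusted p below 0.05 (edgeR), 1 was called higher (ATF5) and 0 lower, against 0.0569% and 0.0284% of all genes tested. The median log2 fold change was 0.45, against 0.0086 over all genes. Fold changes were positive for 15 and negative for 4, against 7178 and 6884 of the 14062 genes. The groups did not overlap for 11 regulators higher in HJ-23 and 2 lower, against 24.8% and 21.2% of all genes tested. ATF5 (ENSG00000169136), a basic leucine zipper factor whose translation rises in the integrated stress response, was at 3.25 and 3.04 CPM in DMSO and at 16.6 and 19.0 CPM in HJ-23, a log2 fold change of 2.50 (SE 0.20, edgeR adjusted p = 0.0304). That call was lost when HJ-23 replicate 1 (edgeR adjusted p = 0.0767) or HJ-23 replicate 2 (0.1499) was left out, with a filter at 10 CPM (0.0596) and with a replicate term beside the GC and length correction (0.0722). At an unadjusted p below 0.05, 9 of the 19 were higher and 0 lower, against 6.77% and 5.25% of all genes tested, and DESeq2 called 3 higher (ATF5, ATF4 and TRIB3) and 0 lower, against 1.19% and 1.11% of the genes it tested.

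ATF4, the factor through which the integrated stress response acts, was at 644.1 and 608.1 CPM in DMSO and 962.3 and 1019 CPM in HJ-23, a log2 fold change of 0.66 (SE 0.13) that did not pass with edgeR (adjusted p = 0.229). TRIB3, which feeds back on ATF4, was at 64.0 and 55.8 against 155.2 and 119.8 CPM (log2 fold change 1.20, SE 0.18). DDIT3, the CHOP gene, was at 86.3 and 63.2 CPM in DMSO and at 100.8 and 189.1 CPM in HJ-23, and ATF3, a stress-induced factor of the ATF family, at 95.5 and 45.3 against 81.4 and 199.4 CPM. For ATF3 the groups overlapped, and for both factors HJ-23 replicate 2 was the high library, as it was for GDF15. For TRIB3 the high library was HJ-23 replicate 1. Without a replicate term, neither DDIT3 nor ATF3 passed on all libraries with edgeR or DESeq2. DDIT3 passed with edgeR when a replicate term was added (log2 fold change 0.90), although the labels do not pair the samples. With the GC and length correction beside that term it did not pass (log2 fold change 0.86). With DMSO replicate 1 left out, the log2 fold changes were 1.20 for DDIT3 and 1.63 for ATF3.

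The receptors of these hormones were in part missing from the cells. GFRAL, the receptor of GDF15, had 0 counts in every library, which allows up to 6 counts per library, while its signalling partner RET was at 28.7 and 26.2 CPM in DMSO and 24.6 and 27.6 CPM in HJ-23. KLB, the co-receptor that FGF21 needs, was near 0 with 4 or 5 counts per library, while FGFR1, the kinase it pairs with, was at 120.6 and 121.8 against 107.7 and 147.7 CPM. CALCRL, the receptor of ADM2, was at 3.35 and 4.51 against 4.34 and 2.76 CPM, and of its partners RAMP1 was at 14.9 and 13.6 against 17.5 and 23.7 CPM while RAMP2 and RAMP3 had 0 counts. ACVR1C (ALK7), through which activin E is known to act, was at 18.1 and 20.2 CPM in DMSO and 12.8 and 8.43 CPM in HJ-23, a log2 fold change of -0.85 (SE 0.24) that did not pass (edgeR adjusted p = 0.311).

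Of 16 receptors and co-receptors, 11 were tested, 0 passed in either direction with edgeR or DESeq2, and the median log2 fold change was -0.062. At an unadjusted p below 0.05 (edgeR), 1 was higher, RAMP1, and 1 lower, ACVR1C, against 6.77% and 5.25% of all genes tested. ACVR1B, a type I activin receptor, was at 18.9 and 50.3 CPM in DMSO and 58.2 and 62.6 CPM in HJ-23, so its log2 fold change of 0.80 (SE 0.45) rested on DMSO replicate 1: it was 0.26 without that library, and 1.65, past the threshold, without DMSO replicate 2. ACVR2A and ACVR2B, type II activin receptors, had log2 fold changes of -0.21 (SE 0.24) and -0.17 (SE 0.17), and that of ACVR2B was 0.13 after the GC and length correction.

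**Figure D3:**
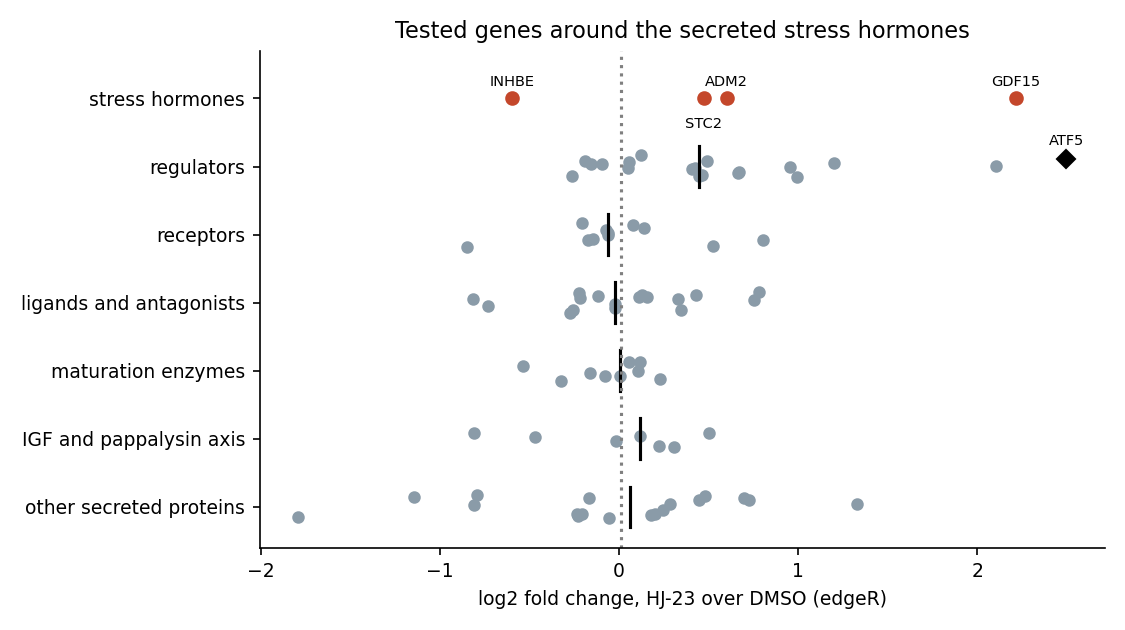
Log2 fold change of each tested gene (points), HJ-23 over DMSO, for the hormones and for the 6 lists around them, with a vertical bar at each list's median, a dotted line at the median of all genes and a diamond for a list gene past the adjusted threshold. The list of regulators has a median of 0.45, the other 5 have medians between -0.062 and 0.12, and ATF5 is the only list gene past the threshold.

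Other ligands of the same families, with binding proteins that block them, gave no call: of 26 listed, 17 were tested, 0 passed with edgeR or DESeq2 (2 higher and 0 lower at an unadjusted p below 0.05, edgeR, against 6.77% and 5.25% of all genes), and the median was -0.023. FGF19, the gut relative of FGF21, was at 47.0 and 36.3 CPM in DMSO and 62.3 and 81.0 CPM in HJ-23, and so was expressed where FGF21 was not (log2 fold change 0.78, SE 0.21; edgeR adjusted p = 0.308). ADM, the adrenomedullin gene related to ADM2, had the opposite sign to ADM2, with 66.4 and 54.6 against 25.5 and 47.2 CPM (log2 fold change -0.73, SE 0.31), and the difference between these paralogs was not tested. FSTL3, a binding protein that blocks activins, was at 15.7 and 16.8 against 21.0 and 33.8 CPM.

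Enzymes that process such hormones were also without a call: 9 of 13 were tested, 0 passed with edgeR or DESeq2 (0 higher and 1 lower at an unadjusted p below 0.05, edgeR, against the same 6.77% and 5.25%), and the median was 0.0052. The lower one was PAM, which adds the terminal amide that ADM2 carries, at 288.5 and 321.2 CPM in DMSO and 200.4 and 220.1 CPM in HJ-23, a log2 fold change of -0.54 (SE 0.14; edgeR adjusted p = 0.297). Of 11 genes of the pappalysin and insulin-like growth factor axis on which the stanniocalcins act, 7 were tested and 0 passed with edgeR or DESeq2 (0 higher and 1 lower at an unadjusted p below 0.05, edgeR, against the same 6.77% and 5.25%), with a median of 0.12. PAPPA, the protease that STC2 inhibits, was near 0 with 5 to 12 counts per library, and the receptor IGF1R was at 77.0 and 72.4 against 55.8 and 52.2 CPM (log2 fold change -0.47, SE 0.14). IGFBP6, an insulin-like growth factor binding protein, was at 43.6 and 46.2 against 49.9 and 77.0 CPM, with HJ-23 replicate 2 as the high library.

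Among 20 other stress-linked secreted proteins, 18 were tested and 0 passed with edgeR (5 higher and 1 lower at an unadjusted p below 0.05, against 6.77% and 5.25% of all genes), with a median of 0.060. DESeq2 called 1 higher, the chemokine CXCL8, at 11.4 and 9.91 CPM in DMSO and 29.1 and 24.4 CPM in HJ-23, a log2 fold change of 1.33 (SE 0.19; edgeR adjusted p = 0.124). ANGPTL4, a lipase inhibitor, was at 146.5 and 116.8 against 54.6 and 95.6 CPM. HBEGF, a growth factor of the EGF family, was at 22.1 and 19.3 against 30.0 and 38.5 CPM, and CRELD2, a protein released under endoplasmic reticulum stress, at 58.9 and 52.3 against 66.2 and 88.5 CPM. For these 3 genes the groups did not overlap, with ANGPTL4 lower in HJ-23 (as were 21.2% of all genes tested) and the others higher (as were 24.8%). They were named by size of change, and without a replicate term none passed with edgeR or DESeq2. ANGPTL4 passed with edgeR when a replicate term was added (log2 fold change -0.86), although the labels do not pair the samples. With the GC and length correction beside that term it did not pass (log2 fold change -1.09).

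The genes whose pattern lay closest to GDF15 were found by the Euclidean distance between log2 CPM, centred on each gene's DMSO mean, over the 4 libraries and 10086 protein-coding genes with a mean of at least 10 CPM. In order they were ZFP90 (distance 0.32), ATF5 (0.44), BBC3 (0.59), ST6GAL1 (0.62), TMEM250 (0.62) and IPO4 (0.76). ZFP90, a zinc finger protein, was at 3.35 and 3.83 CPM in DMSO and 16.8 and 19.1 CPM in HJ-23, and BBC3, the pro-apoptotic protein PUMA, at 23.1 and 20.4 against 107.0 and 163.1 CPM. The sialyltransferase gene ST6GAL1 was at 5.95 and 6.12 against 20.1 and 22.0 CPM, and IPO4, a nuclear import receptor, at 10.7 and 8.31 against 27.2 and 33.4 CPM. TMEM250 was at 8.18 and 7.96 against 44.0 and 57.7 CPM. Their higher level in HJ-23 follows from this choice, and 5 of the 6 had a mean under 10 CPM in DMSO. The other hormones were left out of this search beforehand, so none of them could be among the 6. With 4 libraries in 2 groups, this distance mostly measures how alike the fold changes are.

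**Figure D4:**
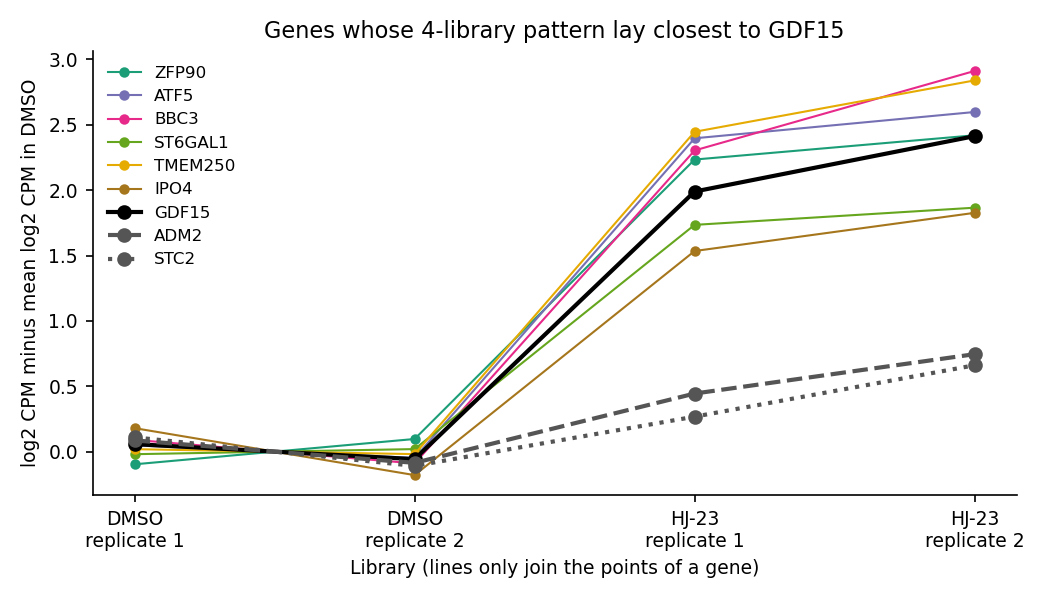
Log2 CPM of GDF15, of the 6 genes closest to it and of ADM2 and STC2, each minus its mean log2 CPM in DMSO, in the 4 libraries on the horizontal axis. All 7 steep lines lie higher in both HJ-23 libraries than in both DMSO libraries, while ADM2 and STC2, with log2 fold changes of 0.60 and 0.47, stay well below them.

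Total counts ran from 29769568 to 34831207 per library. Of 8 epithelial markers, 6 (EPCAM, KRT8, KRT18, KRT19, CDH1 and CLDN7) were above 1 CPM in every library, while VIL1 and CEACAM5 were near 0. Of 4 hepatocyte markers, listed because liver is a main source of FGF21 and INHBE, ALB, APOA1 and TTR were near 0 and SERPINA1 was at 21.5 to 28.2 CPM. Leukocyte, fibroblast and endothelial lists had 4 of 5, 4 of 5 and 2 of 3 markers near 0, respectively. Summed over each list, leukocyte markers were at 35.03 to 40.8 CPM in DMSO and 41.5 to 51.4 CPM in HJ-23, fibroblast markers at 61.5 to 63.7 and 55.8 to 60.5 CPM, and endothelial markers at 0.752 to 1.13 and 0.762 to 1.31 CPM. PTPRC and CD3E had 0 counts, and so did COL1A2 and DCN, while COL1A1 (55.1 to 63.3 CPM) and CD68 (34.8 to 51.0 CPM) made up nearly all of their lists. The part of these cell types in the results was not tested.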

How the data were processed

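RNA-seq counts of 4 HCT116 libraries were used as the authors deposited them: whole numbers per Ensembl gene, not normalized. The submitters' processing notes list FastQC and Trimmomatic, then HISAT2, bedtools and RSEM, with no role or version. The genome build and strand setting were not given in the sources used here. Sample titles gave the groups and replicate numbers. Low counts were mostly even (69.6% to 72.3% of values from 1 to 8 in a library), as when each mate is counted. A count of 0 was therefore given a floor of 6 counts, or 3 fragments, for counting error only. Of 20263 identifiers, 20148 found a symbol in a gene name table and 76 more in GENCODE 29, which also gave transcript lengths and GC content. Genes that overlap may share reads.

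Tests used edgeR 4.0.16 (R 4.3.3) with TMM scaling, filterByExpr and the robust quasi-likelihood test, adjusted by Benjamini-Hochberg over 14062 genes at 0.05. Each SE was derived from the F statistic and its fold change. The code was tested on simulated data. Alternatives were DESeq2 1.42.0, its size factors, no filter or one at 10 CPM, each library left out, a replicate term, and a GC and length correction (splines with 5 degrees of freedom per covariate). Members and lists were chosen with earlier results of these data known. From each list, genes past the threshold were eligible for naming, then up to 5 more with a mean of at least 5 CPM by size of change, and the main receptors and regulators. Other genes were named for a count at or near 0, as markers, or for their likeness to GDF15. RefSeq promoters were printed for 4 members. Some genes of the lists are counted but not reported here by name.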

Additional observations from a re-analysis of the deposited data

How the results depend on the processing

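The 4 tested hormones kept the sign of their log2 fold change under each alternative for which their values were compared (the crossed pairing was not among them). None of those values moved by more than the spread between replicates. With 1 library left out this was bound to hold, because dropping a replicate shifts its group mean by less than the replicate SD. Nothing is read from it there: STC2 then ran from 0.24 to 0.64 and INHBE from -1.11 to -0.26. Counts over all genes did change. Against 8 higher and 4 lower, there were 161 and 150 with DESeq2, 18 and 13 with no filter on low counts, 17 and 11 after correcting for GC and length, and 0 and 0 with the 10 CPM filter (1253 genes at an unadjusted p below 0.05, edgeR). Leaving out 1 library gave 0 to 112 higher and 0 to 161 lower, with 0 in each direction when either HJ-23 library was left out, 112 and 161 when DMSO replicate 1 was, and 94 and 63 when DMSO replicate 2 was.

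The replicate block gave 136 higher and 158 lower, and 0 and 0 together with the GC and length correction (1523 genes at an unadjusted p below 0.05, edgeR). The labels do not pair the samples, and deviations of same-numbered libraries had a correlation of -0.159. A crossed pairing, chosen after seeing the data, gave 454 and 512. With the block, 1 receptor, 4 regulators and 1 other secreted protein were called higher and 1 other secreted protein lower. With the block, the median of the other secreted proteins was 0.030. Block and GC and length correction together gave medians of -0.041 for receptors, 0.34 for regulators and -0.11 for other secreted proteins, with 0 regulators called, and 0.14 for ACVR2B.

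After the GC and length correction alone the medians were -0.051 for receptors, 0.34 for regulators and -0.099 for other secreted proteins, and ACVR2B was at 0.13. The receptor median was -0.078 with DESeq2 size factors and -0.077 with DESeq2, which called 3 regulators and 1 other secreted protein higher. With the 10 CPM filter, 0 regulators were called and the median of the other secreted proteins was 0.24.

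With 1 library left out, list medians ran from -0.060 to 0.014 (receptors), 0.297 to 0.46 (regulators), -0.037 to 0.023 (other secreted proteins), -0.035 to 0.13 (related ligands), -0.093 to 0.080 (maturation enzymes) and -0.033 to 0.14 (stanniocalcin axis). From 0 to 1 receptors, 0 to 4 regulators and 0 to 1 other secreted proteins were then called higher. Log2 fold changes that changed sign ran from -0.43 to 0.042 for ACVR2A, -0.62 to 0.13 for BMP4, -0.53 to 0.12 for CALCRL, -0.19 to 0.27 for FGFR1, -0.090 to 0.037 for IGF2 and -0.0086 to 0.38 for IGFBP2. The cause of these changes was not tested.

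Per kilobase of the median transcript length, DMSO and HJ-23 levels were 276.3 and 1283 CPM for GDF15, 228.4 and 317.1 for STC2, 13.9 and 21.04 for ADM2, and 0.873 and 0.574 for INHBE. Depth limits what can be said of FGF21 and STC1, whose counts were too few to test.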
